A study of Mus musculus with 6 samples.

Results

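The transcripts of 10 target genes of the tumour suppressor p53, out of 27998 gene columns in the deposited table, were followed through 2 inductions of cultured mouse myeloid progenitors. The genes were taken by name as a list of known p53 targets and not by a cut on their measured values, although earlier results of these data were known. All 10 had at least 1 UMI (unique molecular identifier, a tag that counts each captured transcript molecule once), and 9 of them had UMIs in every library. Levels are given as CPM, the UMIs of a gene per 1000000 UMIs summed over the cells of a library.

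The cells were immortalized granulocyte-macrophage progenitors (iGMPs), made from bone marrow of C57BI/6 mice with a Lys-GFP reporter and held in self-renewal in stem cell factor by ER-HOXA9, a fusion of HOXA9 to an estrogen receptor domain that is active in estradiol (150 ng/mL). In the CAF-1 OFF arm, 500 µM IPTG switched on a hairpin RNA that targets Chaf1b, which encodes part of the histone chaperone CAF-1, while estradiol was kept in the medium. In the HOXA9 OFF arm, estradiol was washed out of a clone with a control hairpin, and such cells mature towards neutrophils. Each arm had 1 single-cell library at 0, 48 and 96 h, the 0 h libraries being uninduced cultures in estradiol, and each arm was 1 clone, so that clone and treatment cannot be told apart and the arms are not compared at the later times by any test.

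With 1 library per group, no test between libraries was possible, and intervals below are exact 95% intervals for counting error alone. Kept cells numbered between 473 and 1510 per library and their UMIs between 3524285 and 5589486. The median UMI count per cell was between 5956 and 8660 in the CAF-1 OFF libraries and the HOXA9 OFF library at 0 h, and 3535.5 and 2043.5 in the HOXA9 OFF arm at 48 and 96 h. The 0 h libraries stood apart in quality, since the limits on genes (at least 200) and mitochondrial UMIs (at most 10%) together removed 41.7% of barcodes in the CAF-1 OFF arm and 66.2% in the HOXA9 OFF arm, against 0.198% to 18.3% in the other libraries. Of the 463 and 927 barcodes removed from them, 215 and 746 had fewer than 200 genes. Of the barcode sequences of kept cells, 16 occurred in more than 1 library. Progenitor markers matched the label at 0 h, with Cd34 at 756 and 660 CPM, Kit at 82.8 and 80.9 CPM and Mpo at 1451 and 978 CPM in the 2 arms (CAF-1 OFF first). Chaf1b was 11.1-fold lower at 48 h and 5.49-fold lower at 96 h in the CAF-1 OFF arm, and it was also lower in the HOXA9 OFF arm, at 51.5, 15.3 and 1.13 CPM, where no hairpin targets it.

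The p53 protein binds DNA after damage or other stress and switches on genes that halt the cell cycle, start apoptosis or limit metabolic and oxidative stress. One of its targets, Mdm2, marks p53 for degradation, which closes a negative feedback loop. Because p53 is controlled mostly at the level of protein stability, its own transcript says little of its activity, and target transcripts are commonly read as an output of the pathway, although many of them also answer to other transcription factors. In blood, p53 limits the expansion of stem and progenitor cells.

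The promoters of the members were examined for the letters that p53 is known to bind. RefSeq windows of assembly GRCm38.p6 from 250 bases before to 50 bases after a transcription start were at hand for 8 of the 10 members (11 windows, as Cdkn1a and Bbc3 have several). The p53 decamer, the unit that 1 pair of p53 molecules contacts, was present on either strand in 4 members, Cdkn1a, Mdm2, Ccng1 and Bax, and in 8.36% of all 32817 windows. The full p53 element, a pair of decamers with no spacer (so that it overlaps decamer matches) allowed at most 1 mismatch, was present in Cdkn1a and Ccng1 and in 29 windows (0.0884%). With at most 2 mismatches the same 2 members and 231 windows (0.704%) had it. The 2 elements are printed here in the direction of their gene, with 5 flanking bases on each side. Capitals mark the bases of the 20-base element that match the full p53 element, and lower case marks the flanks and the mismatch.
Cdkn1a, chr17:29090923-29090952, plus strand: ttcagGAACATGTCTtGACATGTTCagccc
Ccng1, chr11:40755457-40755486, minus strand: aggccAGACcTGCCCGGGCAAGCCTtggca
The Cdkn1a element lies 51 to 32 bases before 1 of that gene's 2 starts, with its mismatch at position 11 of the element counted from the 5′ end. The window of the other Cdkn1a start, chr17:29093519-29093818, had 0 decamers and 0 full elements. The Ccng1 element lies 195 to 176 bases before the start, with its mismatch at position 5. The TATA box letters TATAAA were in none of the 8 members and in 13.6% of all windows, and the GC box letters CCGCCC were in 7 of the 8, all but Ccng1, and in 35.6% of all windows. These matches describe letters in a window and not binding. The 2 members with a full element did not share a course over the 6 libraries, as their values below show.

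Mdm2, the ubiquitin ligase that degrades p53 (gene body chr10:117688875-117710758), was at 28.2 CPM (95% Poisson interval 23.4 to 33.8), 27.6 CPM (23.4 to 32.3) and 33.6 CPM (28.8 to 38.8) at 0, 48 and 96 h of CAF-1 OFF. The HOXA9 OFF libraries held it at 23.4 CPM (19.0 to 28.5), 39.0 CPM (33.9 to 44.7) and 61.9 CPM (53.9 to 70.6). The highest library was HOXA9 OFF at 96 h and the next HOXA9 OFF at 48 h, and these differed by more than counting error, with a fold of 1.59 (95% binomial interval 1.31 to 1.93). Against its 0 h library, the level in the HOXA9 OFF arm was 1.67-fold higher (1.30 to 2.14) at 48 h and 2.64-fold higher (2.07 to 3.39) at 96 h. Its folds in the CAF-1 OFF arm were 0.976 at 48 h and 1.19 (0.938 to 1.51) at 96 h, and below the highest library the other 5 followed each other in order with no step beyond counting error.

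Cdkn1a encodes p21, the inhibitor of cyclin-dependent kinases through which p53 halts the cell cycle, and it went in opposite directions in the 2 arms. In the CAF-1 OFF arm it was at 10.9 CPM (7.99 to 14.6), 25.9 CPM (21.9 to 30.5) and 28.9 CPM (24.6 to 33.8), from 46, 145 and 156 UMIs. In the HOXA9 OFF arm it was at 14.1 CPM (10.7 to 18.2), 2.45 CPM (1.30 to 4.19) and 6.24 CPM (3.91 to 9.45), from 59, 13 and 22 UMIs. The induced CAF-1 OFF libraries were the highest and did not differ from each other beyond counting error, the uninduced libraries were in between, and the induced HOXA9 OFF libraries were the lowest. The level was 2.38-fold higher (1.70 to 3.39) at 48 h and 2.65-fold higher (1.90 to 3.77) at 96 h in the CAF-1 OFF arm. It was 5.75-fold lower (3.12 to 11.4) at 48 h and 2.26-fold lower (1.36 to 3.87) at 96 h in the HOXA9 OFF arm, and the latter library lay 2.55-fold (1.23 to 5.51) above the one at 48 h.

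Ccng1, which encodes cyclin G1, a protein that recruits a phosphatase to MDM2, varied little in the CAF-1 OFF arm, at 17.3, 17.2 and 16.3 CPM. The HOXA9 OFF libraries held it at 16.0 CPM (12.4 to 20.3), 28.2 CPM (23.9 to 33.1) and 18.2 CPM (14.0 to 23.2). Only the HOXA9 OFF library at 48 h was set off from the others by a step beyond counting error, at 1.77-fold (1.32 to 2.39) above its 0 h library. Its level at 96 h was 1.56-fold lower than at 48 h, and the ratio of 96 h to 0 h (1.14-fold, 0.794 to 1.62) turned below 1 when totals left out mitochondrial and ribosomal protein genes.

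Btg2, an antiproliferative cofactor of messenger RNA deadenylation that is also an immediate early gene, had 0 UMIs in all CAF-1 OFF libraries and in the HOXA9 OFF arm at 0 h. The later HOXA9 OFF libraries had 2 UMIs at 48 h and 17 UMIs at 96 h, the latter 4.82 CPM (2.81 to 7.72). Taking a floor of 3 UMIs per library for the library at 0, the level at 96 h was at least 6.74-fold higher than at 0 h. These 17 UMIs came from 11 cells, with 5 UMIs in 1 cell, where about 16.9 cells would hold them if they fell on cells in proportion to depth.

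**Figure D1:**
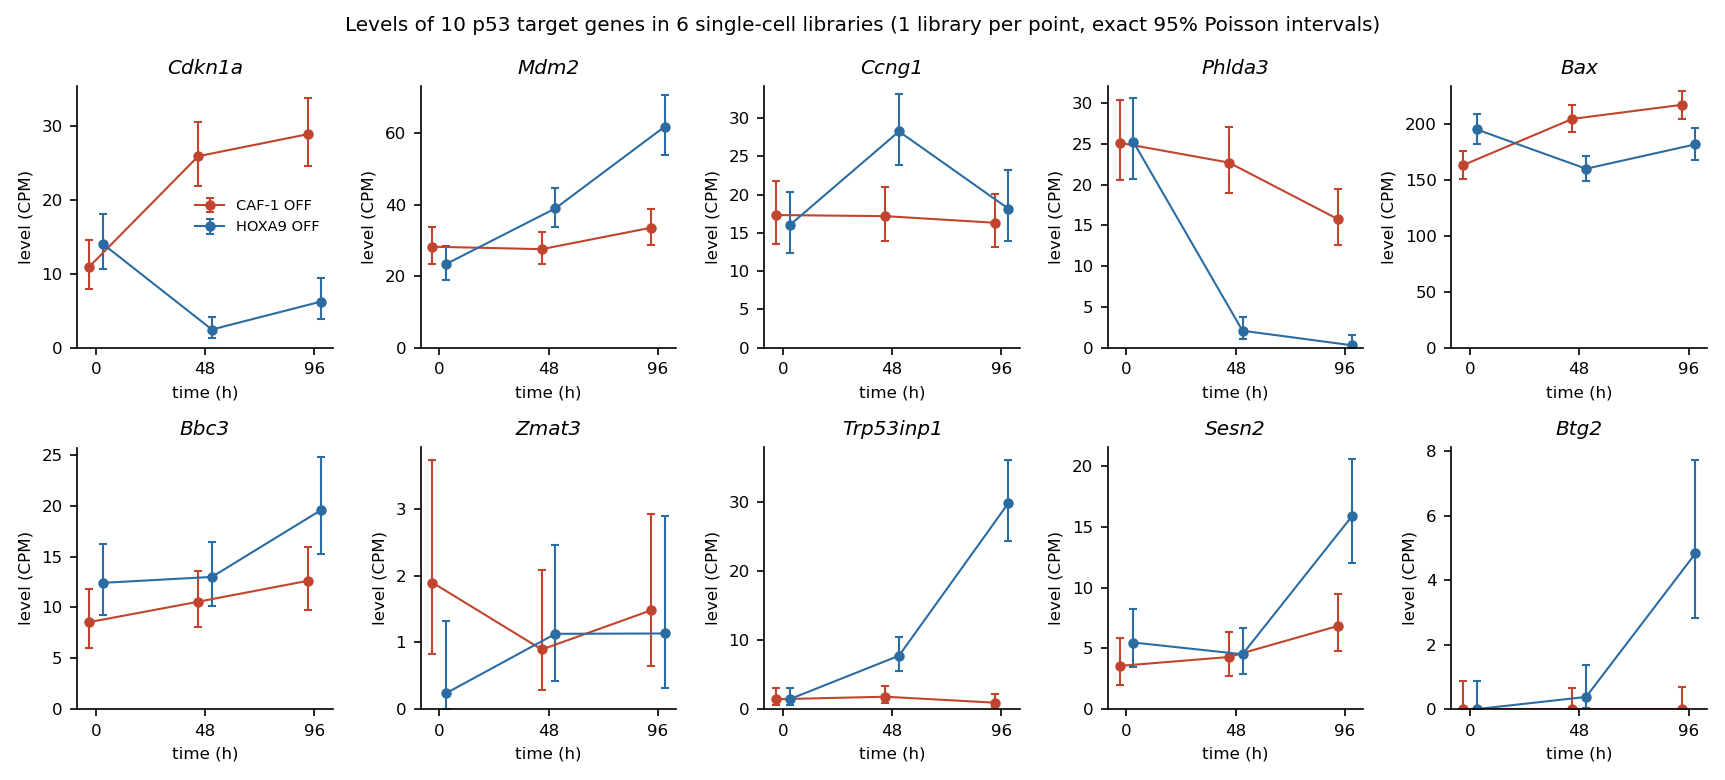
Level of each of the 10 p53 target genes in the 6 libraries, in CPM of UMIs summed over kept cells, on an axis of its own for each gene, with exact 95% Poisson intervals as bars and time in hours on the x axis. Cdkn1a lies at 28.9 CPM in the CAF-1 OFF arm and 6.24 CPM in the HOXA9 OFF arm at 96 h, while Mdm2 lies at 33.6 and 61.9 CPM.

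Among the members that act in apoptosis, Bax was the most abundant, although levels of different genes in 3′ counts are not divided by transcript length and capture may differ between genes. BAX opens the outer mitochondrial membrane. Its transcript was at 163 CPM (151 to 176), 205 CPM (193 to 217) and 217 CPM (205 to 230) in the CAF-1 OFF arm. In the HOXA9 OFF arm it was at 195 CPM (182 to 209), 160 CPM (149 to 171) and 182 CPM (168 to 197). The range was narrow and no neighbours in the order of the 6 libraries differed beyond counting error, although libraries further apart did. The level was 1.25-fold higher (1.14 to 1.38) at 48 h and 1.33-fold higher (1.21 to 1.46) at 96 h in the CAF-1 OFF arm, but the uninduced library of the other clone was itself 1.20-fold higher (1.08 to 1.33). In the HOXA9 OFF arm the folds to 0 h were 0.820 (0.744 to 0.904) and 0.932 (0.839 to 1.03), and the direction depended on the scaling, since TMM factors turned both of these ratios above 1 and size factors from the median of ratios or the 0 h library of the other arm turned that at 96 h. Bax held 53.6% to 66.5% of the members' UMIs in each library, so a sum over the list mostly reads Bax. The sum of the 10 members was 260, 316 and 334 CPM in the CAF-1 OFF arm and 294, 259 and 340 CPM in the HOXA9 OFF arm, and without Bax it was 97.0, 111 and 116 CPM and 98.3, 98.5 and 158 CPM.

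Bbc3 encodes PUMA, a protein that triggers BAX by binding its inhibitors. It was at 8.54, 10.6 and 12.6 CPM in the CAF-1 OFF arm and at 12.4, 13 and 19.6 CPM (15.2 to 24.8) in the HOXA9 OFF arm. The HOXA9 OFF library at 96 h was the highest and lay beyond counting error from the next, HOXA9 OFF at 48 h (1.51-fold, 1.06 to 2.13). Against 0 h it was 1.58-fold higher (1.08 to 2.31), while the fold in the CAF-1 OFF arm at 96 h was 1.48 (0.971 to 2.28) and that between the uninduced libraries 1.45 (0.932 to 2.29).

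Phlda3, a pleckstrin homology domain protein that holds back AKT survival signalling, was at 25.2 CPM (20.6 to 30.4), 22.7 CPM (18.9 to 27.0) and 15.8 CPM (12.6 to 19.5) in the CAF-1 OFF arm. The HOXA9 OFF libraries held it at 25.3 CPM (20.7 to 30.6), 2.07 CPM (1.03 to 3.71) and 0.284 CPM (0.00718 to 1.58), from 106, 11 and 1 UMIs. The 3 lowest libraries, that of CAF-1 OFF at 96 h and the 2 induced ones of HOXA9 OFF, each lay below the next by a step beyond counting error, and the 3 highest had no such step among them. The level was 12.2-fold lower at 48 h in the HOXA9 OFF arm, and the ratio at 96 h, which rests on 1 UMI, was 0.0112 (0.000281 to 0.0639). In the CAF-1 OFF arm it was 1.60-fold lower at 96 h, with a ratio of 0.627 (0.465 to 0.841).

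The remaining members act in stress handling. Trp53inp1, a nuclear and autophagy protein that promotes p53 phosphorylation, was at 1.42, 1.79 and 0.927 CPM in the CAF-1 OFF arm, from 6, 10 and 5 UMIs. In the HOXA9 OFF arm it was at 1.43 CPM (0.525 to 3.12), 7.72 CPM (5.54 to 10.5) and 29.8 CPM (24.4 to 36.1), from 6, 41 and 105 UMIs. The induced HOXA9 OFF libraries were the 2 highest, with a step beyond counting error above each of the next libraries, and the other 4 had no such step among them. The level was 5.39-fold higher (2.28 to 15.5) at 48 h and 20.8-fold higher (9.25 to 58.0) at 96 h, the largest fold upwards among members with a UMI at 0 h.

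Sesn2, or sestrin 2, which restrains the growth kinase complex mTORC1 and is also a target of ATF4, was at 3.56, 4.29 and 6.86 CPM in the CAF-1 OFF arm and at 5.49, 4.52 and 15.9 CPM (12.0 to 20.6) in the HOXA9 OFF arm. The HOXA9 OFF library at 96 h stood above all others, 2.89-fold (1.75 to 4.93) over 0 h and 3.52-fold (2.14 to 5.93) over 48 h. The ratio at 48 h (0.823) turned above 1 with TMM factors, and on the log2 scale above 0 with the 0 h library of the other arm. In the CAF-1 OFF arm the fold at 96 h was 1.93 (1.03 to 3.78), from 15 and 37 UMIs, and on the log2 scale with 10 CPM added this ratio of 0.31 turned to −0.06 with a mitochondrial limit of 5%.

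Zmat3, a zinc finger protein that binds RNA and affects splicing, had between 1 and 8 UMIs per library, or 0.239 to 1.90 CPM. No neighbours in its order differed beyond counting error. The ratio between the uninduced libraries was 0.126 (0.00283 to 0.938), from 1 UMI in the HOXA9 OFF arm and 8 UMIs in the CAF-1 OFF arm, and because of that 1 UMI the ratios of 4.73 (0.574 to 218) and 4.76 (0.471 to 234) in the HOXA9 OFF arm cannot be read as a difference.

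The uninduced libraries show how far the members lie apart between the clones with no induction. On the log2 scale after adding 10 CPM to both levels, which understates the difference of low genes, the 10 differences (HOXA9 OFF minus CAF-1 OFF) ran from −0.22 for Zmat3 to 0.27 for Bbc3, with a median of 0.00351 against −0.04 over all genes at 20 CPM or more. Beside Zmat3, Bax was the only member whose interval of the fold left out 1. On this scale 0 of the 10 members were at least 2-fold higher or lower at 0 h, where 0.752% of the 4789 genes at a mean of 20 CPM or more were higher and 0.146% lower. Only 2 members, Mdm2 and Bax, reach that mean, so each count was also made with no CPM added and set beside the 10879 genes at a mean of 1 CPM or more, 9 members among them, a rule chosen after the data were seen. By it 0 members were higher and 1, Zmat3, was lower at 0 h, against 4.32% and 2.65% of genes.

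**Figure D2:**
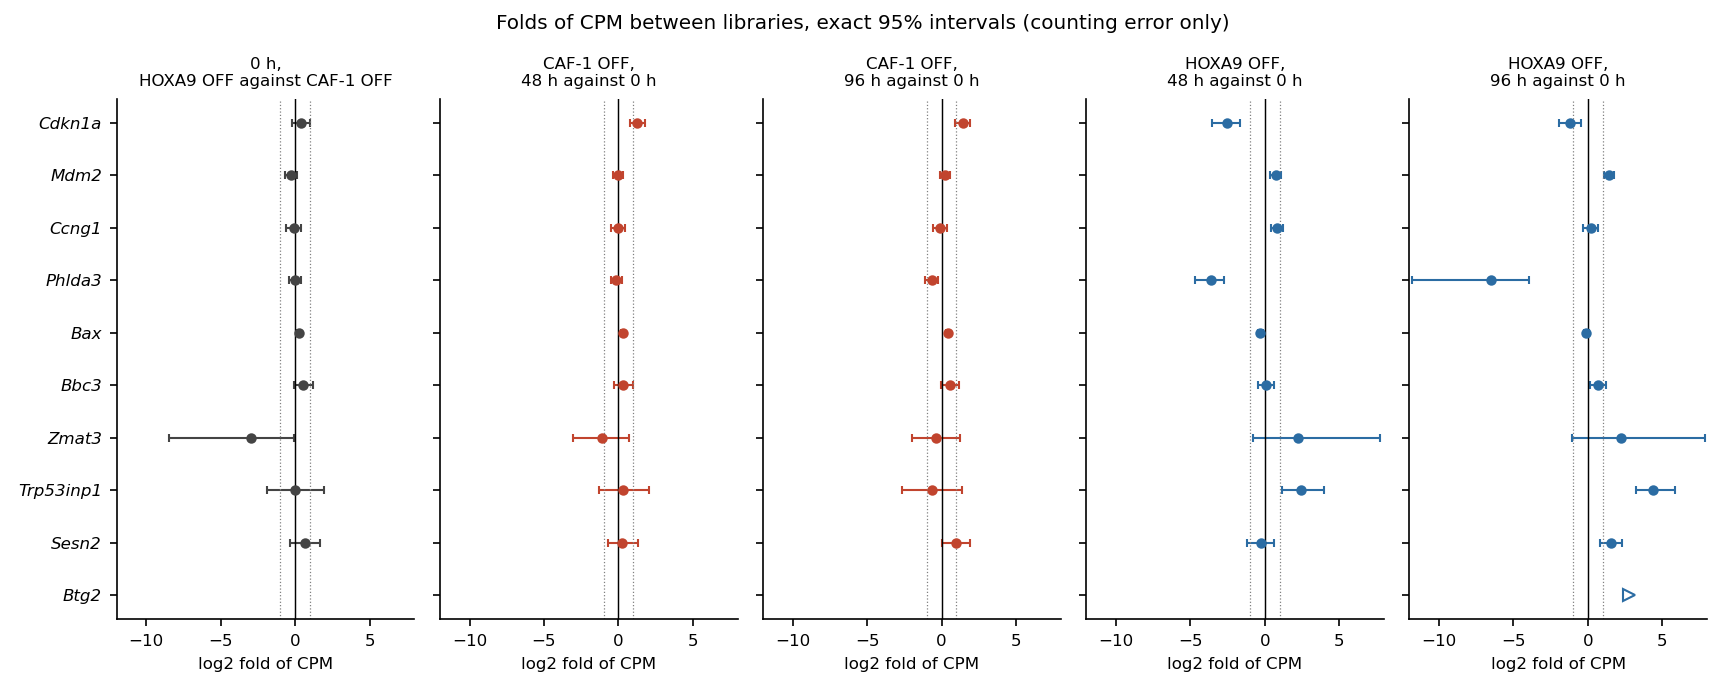
Log2 fold of CPM of each member (x axis, no CPM added) between the uninduced libraries and against 0 h in each arm, with exact 95% binomial intervals as bars, dotted lines at 2-fold and an open triangle where a library at 0 UMIs gives a bound (Btg2). Cdkn1a lies right of 0 in the CAF-1 OFF arm and left of it in the HOXA9 OFF arm, where Mdm2 and Trp53inp1 lie right of 0, and the sign for Bax in the HOXA9 OFF arm turned with TMM factors.

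On the scale with 10 CPM added, the members lay within the 2-fold size in the CAF-1 OFF arm. At this size 0 of 10 were at least 2-fold higher or lower at 48 h, against 2.76% and 0.0418% of genes, and again 0 at 96 h, against 5.22% and 0.856%. The largest values were those of Cdkn1a, at 0.78 and 0.90, and the smallest that of Phlda3 at 96 h, at −0.45. The median over the members was 0.02 at 48 h and 0.09 at 96 h, beside 0 and −0.08 over all genes. With no CPM added, Cdkn1a was higher and Zmat3 lower at 48 h, against 11.0% and 1.65% of genes, and at 96 h Cdkn1a was higher and none lower, against 14.0% and 5.11%. Zmat3 is counted here from 5 UMIs against 8, with an interval of the ratio that holds 1 (0.121 to 1.63). A share of 1 in 9 members is close to the background in the direction of higher levels.

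The members spread in the HOXA9 OFF arm in both directions. The median of all genes was itself −0.23 at 48 h and −0.56 at 96 h on this scale, and TMM factors moved it by 0.25 and 0.38, so member values are also read against it. At 48 h 0 members were higher and 1, Phlda3 (−1.55), was lower, against 13% and 19.6% of genes. At 96 h Mdm2 (1.11) and Trp53inp1 (1.80) were higher and Phlda3 (−1.78) was lower, against 18.1% and 39.8% of genes. With TMM factors the split over all genes was 794 higher and 661 lower at 48 h, where it had been 621 and 940, and 1166 higher and 1487 lower at 96 h, where it had been 865 and 1906. The members' median was 0.05 at 48 h and 0.26 at 96 h. With no CPM added, Zmat3 and Trp53inp1 were higher and Cdkn1a and Phlda3 lower at 48 h, against 17.2% and 27.3% of genes. At 96 h 4 of the 9 members at 1 CPM or more (Mdm2, Zmat3, Trp53inp1 and Sesn2, with Btg2 as a further one below that level) were higher and 2 (Cdkn1a and Phlda3) lower, against 21.8% and 42.2% of genes. Zmat3 enters both counts from 6 and 4 UMIs against 1, with intervals that hold 1, so it cannot be read as a difference. Over the same hours the sum of 8 eosinophil markers was at 1470, 19278 and 3264 CPM, beside 217 CPM at 0 h of CAF-1 OFF. The sum of 11 late granulocyte markers went from 7.88 CPM at 0 h to 9219 and 145988 CPM. That of 8 progenitor markers went from 6685 to 3988 and 115 CPM. All 11 late granulocyte and all 8 progenitor markers were past the 2-fold size at 96 h. The library where Mdm2, Trp53inp1 and Sesn2 were highest thus held few progenitor transcripts, and the part of these markers in the members' values was not tested. Since the values are sums over a library, fewer cells with a transcript and fewer transcripts per cell cannot be told apart in them.

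To compare shares of cells, each cell was thinned to 1300 UMIs, which left out 134 cells of HOXA9 OFF at 96 h and 1 to 28 cells of each other library. At this depth Cdkn1a was seen in 2.05%, 3.09% and 3.33% of 633, 907 and 902 CAF-1 OFF cells. Its shares were 1.48%, 0.218% and 0.436% of 472, 1376 and 1376 HOXA9 OFF cells. The order of the shares followed that of the levels at the later times. The counting intervals of the later shares were 2.06% to 4.43% and 2.26% to 4.71% for CAF-1 OFF, and 0.0450% to 0.636% and 0.160% to 0.947% for HOXA9 OFF. At 0 h the interval was 1.10% to 3.49% for CAF-1 OFF, which holds both later shares of that arm. That of HOXA9 OFF at 0 h was 0.598% to 3.03%, which holds neither later share of its arm. Without thinning the shares were 6.96%, 13.4% and 13.6% in the CAF-1 OFF arm and 10.6%, 0.855% and 1.26% in the HOXA9 OFF arm.

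Mdm2 was seen in 3.81% (2.28% to 5.96%), 5.16% (4.05% to 6.46%) and 7.92% (6.55% to 9.48%) of thinned HOXA9 OFF cells, and in 2.53%, 4.52% and 3.99% of CAF-1 OFF cells. Thinned to 2600 UMIs, the shares were 6.21%, 9.34% and 15.7% of HOXA9 OFF cells, and 7.92%, 6.49% and 6.78% of CAF-1 OFF cells, whose order thus changed with the thinning. Without thinning the HOXA9 OFF shares of Mdm2 were 18.2%, 13.8% and 12.9%, the reverse order, beside median depths of 8660, 3535.5 and 2043.5 UMIs per cell. Trp53inp1 was seen in 0.212%, 1.02% and 4.14% (3.15% to 5.33%) of thinned HOXA9 OFF cells. Phlda3 was seen in 3.60%, 0.218% and 0% of these cells, and 0 of 1376, at a floor of 3 counts, allows a share of up to 0.218% of cells with a UMI at this depth. Bax was seen in 18.5% to 24.6% of thinned cells in all 6 libraries. No cell type in the culture is known to lack these genes, so no background share is given beside these.

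**Figure D3:**
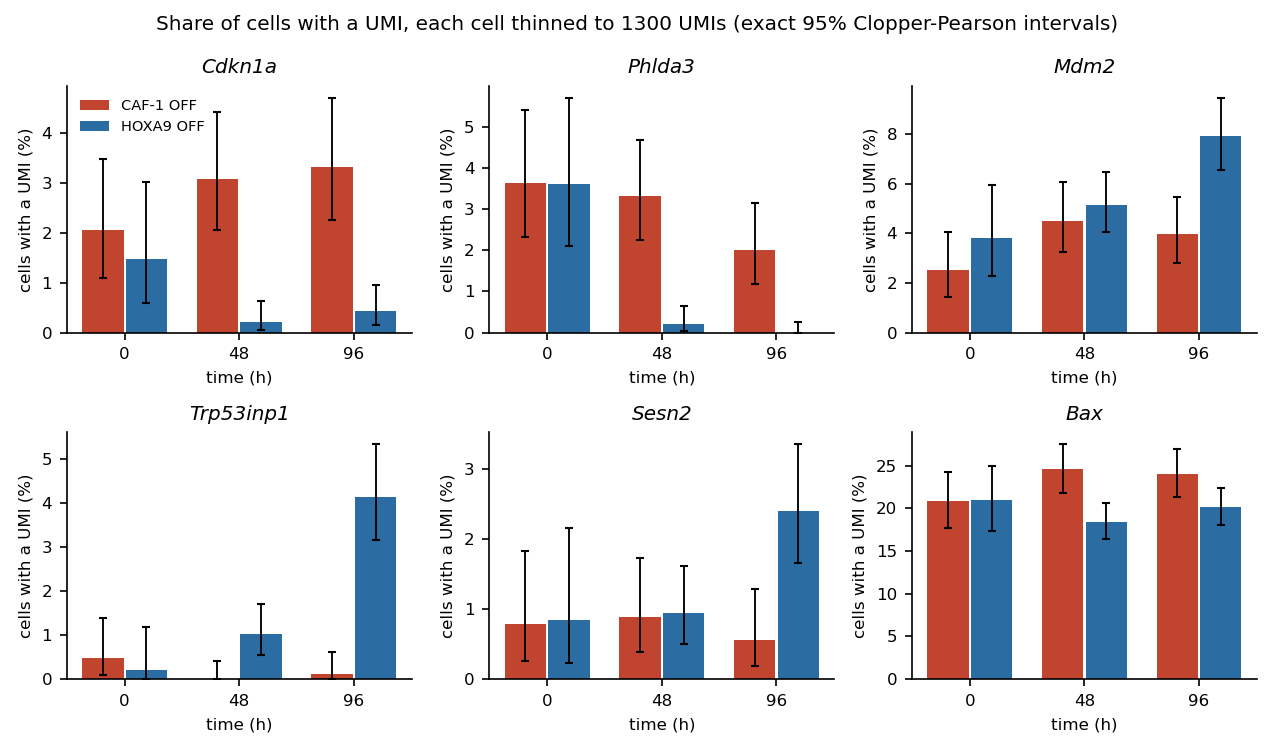
Share of cells with at least 1 UMI of 6 members (bars) after thinning each cell to 1300 UMIs, in percent, by arm and time in hours, with exact 95% binomial intervals as black lines. Mdm2 reaches 7.92% and Trp53inp1 4.14% in the HOXA9 OFF arm at 96 h, where Phlda3 was in 0 of 1376 cells.

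The share of cells with UMIs of several members lay near that which their separate shares give. Of thinned cells, 2.53%, 4.63% and 3.66% in the CAF-1 OFF arm and 3.18%, 2.91% and 4.87% in the HOXA9 OFF arm held UMIs of 2 or more members. The products of the single shares give 3.12%, 4.28% and 3.77%, and 3.30%, 2.76% and 4.76%, each inside the exact interval of the measured share, for example 3.79% to 6.14% in the HOXA9 OFF arm at 96 h. At 1300 UMIs per cell these shares are low, so a joint response of a few cells was not detectable at this depth. Cdkn1a was spread less evenly than depth alone gives in the induced CAF-1 OFF libraries. Its 156 UMIs at 96 h fell in 124 cells, 28 of them with 2 or more, beside 142 and 12.7 cells if they fell in proportion to depth. At 48 h 18 cells had 2 or more UMIs of Cdkn1a, beside 11.0. The CAF-1 OFF library at 0 h had 1 such cell, beside 1.73. This was not particular to that arm, since HOXA9 OFF had 8 such cells at 0 h, beside 3.66, and 3 at 96 h, beside 0.197. Other members were spread unevenly in CAF-1 OFF at 48 h too, with 2 or more UMIs of Mdm2 in 21 cells, beside 12.3, and of Phlda3 in 15 cells, beside 8.56.

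Because p21 acts on the cell cycle, the members were also read in cells with a higher and a lower share of UMIs from 50 S phase and G2/M genes, cut at the median of each library. This cut is a range of a score and not a cell type, and cells near it differ little. In CAF-1 OFF at 96 h Cdkn1a was at 37.4 CPM in the 455 cells above the median and 17.9 CPM in the 456 cells at or below it, 2.09-fold higher (1.45 to 3.05) in the cells with more cycling transcripts. Between the 228 cells with the highest and the 228 with the lowest score of that library the fold was 4.31 (2.20 to 9.41). Ccng1 was also higher in the former cells there, at 2.12-fold (1.02 to 4.84). In HOXA9 OFF at 96 h the same comparison, of 378 and 378 cells, went the other way for Cdkn1a. Its ratio was 0.101 (0.00234 to 0.712), from 1 UMI against 10. In the other libraries its interval held 1. Mdm2 differed too, at 2.12 (1.05 to 4.63) at 0 h and 0.597 (0.367 to 0.964) at 48 h of CAF-1 OFF. With the cut at the median, the fold of Cdkn1a was 1.30 (0.922 to 1.85) at 48 h and 0.805 at 0 h in the CAF-1 OFF arm. It was 0.480 (0.166 to 1.25) in the HOXA9 OFF arm at 96 h. Cells above the median also held more UMIs, with a median of 6766 against 5067 in the CAF-1 OFF arm at 96 h, and CPM takes that depth into account only on average.

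At the median cut, other members differed between these cells beyond counting error in few libraries. Btg2 had 3 of its 17 UMIs in the HOXA9 OFF arm at 96 h in cells above the median and 14 at or below it (ratio 0.221, 0.0406 to 0.790). Phlda3 in the HOXA9 OFF arm at 48 h had all 11 UMIs in cells above the median and 0 below. Bbc3 in the HOXA9 OFF arm at 48 h was lower above the median (0.550, 0.328 to 0.912), and so was Bax in the HOXA9 OFF arm at 0 h (0.859, 0.747 to 0.988). The summed S phase genes were at 2931, 2702 and 2144 CPM in the CAF-1 OFF arm and at 2668, 1006 and 255 CPM in the HOXA9 OFF arm, so that Cdkn1a was low in the libraries where cycling transcripts were low too, and the part of that in its level was not tested.

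**Figure D4:**
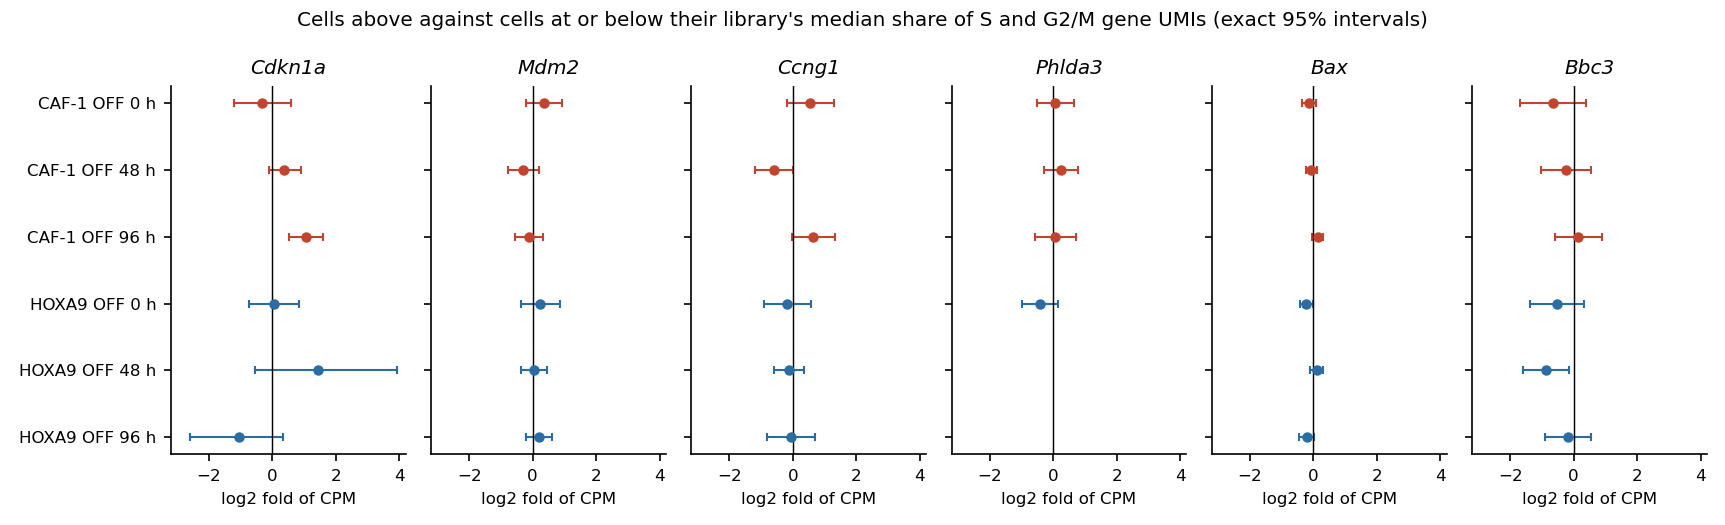
Log2 fold of CPM (x axis) between cells above and cells at or below the median share of S phase and G2/M UMIs of their library, for 6 members in each library, with exact 95% binomial intervals as bars and no point where either side had 0 UMIs. At 96 h of CAF-1 OFF the point of Cdkn1a lies right of 0, from 37.4 CPM in the cells above the median and 17.9 CPM in the others.

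The members were also read in all barcodes that the 2 limits removed, most of which had under 200 genes at 0 h of HOXA9 OFF, over UMIs that were not mitochondrial. The sum of the members in removed barcodes was 0.845, 0.791 and 0.814 of that in kept cells in the CAF-1 OFF arm and 0.677 (0.523 to 0.863), 1.09 and 0.722 in the HOXA9 OFF arm. The last of these rests on 1 UMI in 3 removed barcodes (0.0183 to 4.03). Bax was lower in removed barcodes, at 0.699 (0.497 to 0.959) of the kept level at 0 h of CAF-1 OFF and 0.575 (0.406 to 0.793) at 0 h of HOXA9 OFF. Mdm2 was 2.28-fold higher (1.20 to 3.99) in removed barcodes of HOXA9 OFF at 48 h. Lifting the mitochondrial limit alone, with barcodes under 200 genes still left out, moved none of the 60 member levels beyond its interval.

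Other genes of the pathway were taken from a list of 30 further p53 targets, of which 27 had a UMI. By the rule with 10 CPM added, 1 was higher and 0 lower at 48 h of CAF-1 OFF, and 2 and 1 at 96 h. For HOXA9 OFF 4 were higher and 2 lower at 48 h, and 5 and 4 at 96 h. Only 7 of the 27 had a mean of 20 CPM or more, the level at which the shares over all genes were counted. Of these 7, 1 was higher and 0 lower at 48 h of CAF-1 OFF (against 2.76% and 0.0418% of all genes) and 2 and 0 at 96 h (5.22% and 0.856%). For HOXA9 OFF the counts among the 7 were 2 and 2 at 48 h (13% and 19.6%) and 2 and 3 at 96 h (18.1% and 39.8%). Gadd45a, a growth arrest and DNA repair gene, was at 19.2, 58.9 and 105 CPM in the CAF-1 OFF arm and at 23.4, 64.0 and 182 CPM in the HOXA9 OFF arm, at least 2-fold higher at both times in both arms, which held for none of the 10 members. Its folds at 96 h were 5.46 (4.32 to 6.98) and 7.78 (6.28 to 9.72).

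Pmaip1, which encodes the BH3-only protein NOXA, was also higher in both arms, at 8.07, 19.0 and 36.9 CPM and at 6.44, 24.1 and 42.3 CPM. Fas, the death receptor, was at 0.712, 9.12 and 10.0 CPM in the CAF-1 OFF arm, and it had 3, 106 and 252 UMIs in the HOXA9 OFF libraries. Its folds at 96 h, from 3 UMIs in each 0 h library, were 14.1 (4.56 to 70.3) and 99.9 (33.8 to 487). In the other direction Aen, an apoptosis nuclease, was at 40.1, 21.8 and 22.8 CPM in the CAF-1 OFF arm and at 38.4, 5.46 and 1.13 CPM in the HOXA9 OFF arm, which is the course of Phlda3 in the latter arm. Fdxr, a mitochondrial ferredoxin reductase, was at 25.6, 13.2 and 7.42 CPM and at 24.3, 9.04 and 2.27 CPM. Rps27l, a ribosomal protein paralog whose reads may be shared with its copy, was at 551 and 191 CPM in induced HOXA9 OFF cells against 1172 CPM at 0 h, and Xpc, a sensor of DNA damage, was at 183 and 58.5 CPM against 208 CPM.

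**Figure D5:**
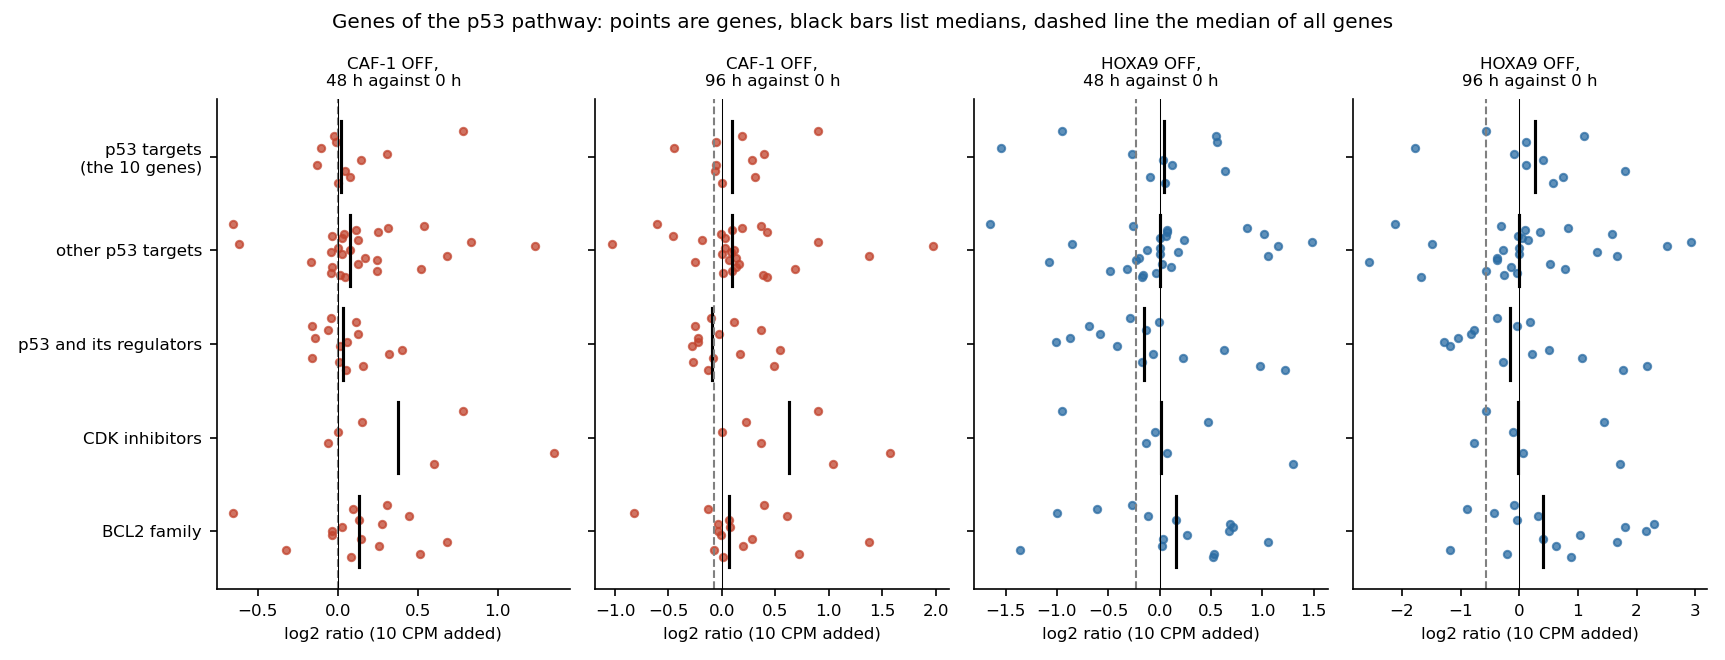
Log2 ratio to 0 h with 10 CPM added (x axis, with its own range in each panel) for each gene of the members and of 4 related lists, as points, with the median of each list as a black bar and the median of all genes as a dashed line. The median of the 10 members lies at 0.02 and 0.09 in the CAF-1 OFF arm and at 0.05 and 0.26 in the HOXA9 OFF arm, where that of all genes lies at −0.23 and −0.56.

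Trp53, the gene of p53 itself, was at 9.73, 9.12 and 8.34 CPM in the CAF-1 OFF arm and at 10.0, 6.40 and 5.39 CPM in the HOXA9 OFF arm. Its ratio to 0 h left out 1 only in the HOXA9 OFF arm at 96 h (1.86-fold lower, 1.06 to 3.39), while Mdm2 was highest there. Of the 14 measured genes in the list of p53 and its regulators, Trp53 included, none was past the 2-fold size in the CAF-1 OFF arm on the scale with 10 CPM added. There 2.76% of all genes were higher and 0.0418% lower at 48 h, and 5.22% and 0.856% at 96 h. In the HOXA9 OFF arm at 96 h 3 of the 14 were higher and 3 lower, against 18.1% and 39.8% of genes. These shares are over genes at a mean of 20 CPM or more, which Trp53 and others of the 14 did not reach. The ubiquitin ligases Rchy1 and Rfwd2, which like Mdm2 target p53, were higher with it in the HOXA9 OFF arm. Rchy1 was at 58.9, 125 and 300.2 CPM there and at 57.2, 65.1 and 84.0 CPM in the CAF-1 OFF arm. Rfwd2 was at 51.5, 133 and 200 CPM, but its uninduced libraries already differed 1.91-fold. Cdkn2a, whose ARF product blocks MDM2, was at 489, 469 and 632 CPM in the CAF-1 OFF arm and at 482, 440 and 278 CPM in the HOXA9 OFF arm.

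Relatives of the members often took another course. Among CDK inhibitors, Cdkn2c (p18) was at 20.2, 67.1 and 79.5 CPM in the CAF-1 OFF arm, higher in the same libraries as Cdkn1a, and at 21.5, 23.2 and 22.7 CPM in the HOXA9 OFF arm. Like Cdkn1a, it was higher in the more cycling cells of CAF-1 OFF at 96 h, by 3.11-fold (2.45 to 3.99). With intervals that left out 1, which those of Cdkn1a did not there, it was also higher in the more cycling cells at 0 h (1.83-fold, 1.13 to 3.02) and 48 h (2.00-fold, 1.59 to 2.52) of that arm and at 48 h of HOXA9 OFF (6.82-fold, 3.83 to 13.2). Cdkn2d (p19) was higher in both arms, at 69.0, 110 and 152 CPM and at 50.8, 139 and 190 CPM. Ccng2, the relative of Ccng1, was at 16.9, 62.3 and 106 CPM in the HOXA9 OFF arm, with no return at 96 h, and at 18.3, 26.3 and 23.9 CPM in the CAF-1 OFF arm.

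Btg1, the relative of Btg2, was at 42.0, 380 and 723 CPM in the HOXA9 OFF arm, and Tob1, also of that family, at 6.44, 28.1 and 77.7 CPM. Phlda1 was at 1.67, 7.53 and 38.9 CPM in the HOXA9 OFF arm, the opposite direction to Phlda3. Trp53inp2 was at 4.53, 11.9 and 48.8 CPM there, the direction of Trp53inp1, and at 2.37, 6.98 and 7.23 CPM in the CAF-1 OFF arm, where Trp53inp1 stayed below 2 CPM. Sesn1 was at 5.01 CPM and 3.69 CPM in the HOXA9 OFF arm at 0 and 96 h, where Sesn2 was higher at the later time. In the BCL2 family of Bax and Bbc3, Mcl1, an inhibitor of apoptosis, was at 28.6, 52.0 and 180 CPM in the HOXA9 OFF arm, and Bid, an activator of BAX, at 125, 42.4 and 49.1 CPM.

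Several members also belong to other programs, whose genes are given beside them. Btg2 is 1 of 12 immediate early genes, of which 0 were past the 2-fold size in the CAF-1 OFF arm on the scale with 10 CPM added. In the HOXA9 OFF arm 7 were higher at 48 h and 11 at 96 h, against 13% and 18.1% of genes. These shares are over genes at a mean of 20 CPM or more, a level that 7 of the 12 reached. Btg2 itself (0.05 at 48 h and 0.57 at 96 h) was within the 2-fold size at both times. The sum of the 12 was 117, 572 and 1806 CPM in the HOXA9 OFF arm. Sesn2 is 1 of 12 listed genes of the ATF4 stress response, of which 11 had a UMI. At 96 h of HOXA9 OFF, 2 of these were higher and 6 lower, against 18.1% and 39.8% of genes. Sesn2 (0.74) was within the 2-fold size on this scale. In the CAF-1 OFF arm, sums of mast cell or basophil markers were at 288, 1470 and 4052 CPM and of megakaryocyte markers at 51.0, 518 and 2721 CPM over the hours in which Cdkn1a was higher, and their part in it was not tested.

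Over the 6 libraries, the genes whose levels went most like those of Mdm2, among 3279 genes at a mean of 20 CPM or more and a range of at least 1 on the log2 scale, were Dusp1, Wsb1 and Rab5a, with Pearson's r of 0.997, 0.994 and 0.993. Those most like Bax were Asph, H2-Q6 and Spint2, with r of 0.951, 0.921 and 0.904. These are descriptions over 6 points that share a library, its depth and its state of maturation, and the other 8 members were below the mean level for this comparison.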

How the data were processed

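Single-cell 3′ libraries (10x Chromium, v2) of 6 cultures were used, 1 per arm and time. The authors sorted live cells, aligned reads to GRCm38 (mm10) and deposited UMI counts per gene and barcode as whole numbers. The submitters' processing notes name Cell Ranger 3.0.1, Seurat 3.0.1 and Scanpy 1.4.6. The table held 7821 barcodes, and the study's limits (200 to 6000 genes, at most 10% of UMIs from 13 mitochondrial genes) kept 5872 cells and removed 1949 barcodes.

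Counts were summed per library and scaled to CPM. Folds of CPM have exact binomial intervals and levels exact Poisson intervals (95%, counting error only). Log2 ratios have 10 CPM added. A library at 0 was set to a floor of 3 UMIs. Genes past a 2-fold size were counted among those with a mean of at least 20 CPM. For shares, cells were thinned to 1300 UMIs and cells below that were left out. No doublets were removed, and Scrublet called 131 cells, which an alternative leaves out. With 1 library per group no test was run. Antisense or overlapping genes and near-identical copies were not separated beyond the authors' counting.

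Promoter windows and gene positions came from RefSeq (GRCm38.p6), and 8 of 10 members had a window. Named genes are the members, Trp53, Chaf1b, family relatives of members, and up to 4 genes per list at 20 CPM or more with the largest ratio. Pmaip1 is named by its BCL2 family rank, while Fas, Fdxr and Kit were named after their values were seen. The members and lists were chosen with earlier results of these data known. Alternatives varied the CPM added, the scaling (TMM from edgeR 4.0.16, median of ratios from DESeq2 1.42.0, used only for size factors), the limits on cells and the thinning depth. The scripts ran in Python 3.11.15 with numpy 2.4.6, scipy 1.17.1, pandas 2.3.3 and scanpy 1.11.5, and were tested on simulated data.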

Additional observations from a re-analysis of the deposited data

Results flagged for a closer look

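For 4 members the log2 ratio to 0 h, after adding 10 CPM, had opposite signs in the arms at both later times. Each arm has 1 library per time, so the difference was not tested. For Cdkn1a the ratio at 96 h was 0.90 in the CAF-1 OFF arm and −0.57 in the HOXA9 OFF arm, a difference (HOXA9 OFF minus CAF-1 OFF) of −1.46, and at 48 h the ratios were 0.78 and −0.95. The signs for Cdkn1a held under every scaling, limit on cells and 0 h library that was tried. In the HOXA9 OFF arm the median of all genes was itself −0.56 at 96 h and −0.23 at 48 h. The value of Cdkn1a thus lay near that median at 96 h and below it at 48 h, on a scale that understates the difference of low genes.

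For Bax the ratios at 96 h were 0.39 and −0.10, a difference of −0.49, and the sign in the HOXA9 OFF arm turned at 48 h with TMM factors (0.02) and at 96 h with TMM factors (0.37), with size factors from the median of ratios (0.44) and with the 0 h library of the other arm (0.15). For Ccng1 the ratios at 96 h were −0.05 and 0.12, a difference of 0.17, and for Zmat3 they were −0.05 and 0.12, also a difference of 0.17. Both are smaller than the counting intervals, and with the 0 h library of the other arm the signs of both turned at both times in the CAF-1 OFF arm, and that of Zmat3 also in the HOXA9 OFF arm (−0.10 at both times).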

How the results depend on the processing

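No paired analysis was possible because each group has 1 library, and no replicate could be left out for the same reason. The depth limits Zmat3 and Btg2 most (32 and 19 UMIs over all libraries). Of the members' log2 ratios, 371 of 440 stayed within their counting interval under the alternatives. Counts of members past the 2-fold size moved most with the CPM added, since 8 of 10 lie below a mean of 20 CPM. With 1 CPM added they were 1 at 0 h, 1 and 1 in the CAF-1 OFF arm at 48 and 96 h, and 3 and 6 in the HOXA9 OFF arm, where the reported counts were 0, 0, 0, 1 and 3. With no CPM added, chosen after seeing the data, they were 1, 2, 1, 4 and 7. With 50 CPM added, and with a 4-fold size, they were 0 and 0 in the HOXA9 OFF arm. With a 1.5-fold size they were 1 and 1 in the CAF-1 OFF arm and 3 in the HOXA9 OFF arm at 48 h. Totals without mitochondrial and ribosomal protein genes gave 1 in the CAF-1 OFF arm at 96 h and 2 in the HOXA9 OFF arm at 48 h, and a mitochondrial limit of 5% gave 2 in the latter. The members' median was 0.14 in the CAF-1 OFF arm at 48 h with no CPM added (reported 0.02). It was 0.26 in the HOXA9 OFF arm at 48 h with 1 CPM added (reported 0.05), and at 96 h it was 0.70 with 1 CPM added, 0.57 with TMM factors, 0.61 with size factors from the median of ratios and 1.03 with no CPM added (reported 0.26). The cause of the moves with another scaling or limit on cells was not tested. Using the 0 h library of the other arm, also chosen after seeing the data, moved 8 of 40 member ratios beyond their interval. Leaving out the cells called by Scrublet, or lifting the mitochondrial limit alone, moved 0 of the members' counts and medians.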
